A study of Mus musculus with 12 samples.

Results

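The Rb knockout label was compared with its absence across both E2f8 backgrounds in sorted mouse splenocytes that carried Ter119 and high CD71. Ter119 marks the erythroid lineage, and CD71 is the transferrin receptor through which erythroblasts take up iron. The comparison used 12 of the 12 arrays of the series, of which 6 carried the Rb knockout in their title and 6 did not. Of those with the label, 3 were Rb KO and 3 were DKO, the knockout of Rb and E2f8 together. Of those without it, 3 were wild type (WT) and 3 were E2f8 KO. All mice were 3 months old, and each genotype had 3 labelled biological replicates. The sources used here do not give the strain, the alleles, the means of deletion or the number of mice per array. The E2f8 label entered the fit as an additive term, so that each difference below is the mean of Rb KO minus WT and of DKO minus E2f8 KO. A gene was called where limma's Benjamini-Hochberg adjusted p over all 12980 genes tested was under 0.05.

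The retinoblastoma protein, encoded by Rb1, binds activating E2F transcription factors and holds their target genes down until cyclin-dependent kinases release it late in G1. E2F targets include the licensing factors, helicase and polymerase subunits of DNA replication, and also E2f1 itself. E2f8 is an atypical E2F that represses transcription without binding Rb, so the 2 backgrounds differ in a repressor that acts on many of the same promoters. Erythroblasts mature around a central macrophage in erythroblastic islands, where the macrophage holds them through Vcam1 and engulfs the expelled nuclei through receptors such as Mertk and Axl.

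Signals of the targeted genes did not all run as the labels would have it. The log2 signal of Rb1 was 13.02, 12.74 and 12.71 in WT arrays, next to 12.53, 12.33 and 12.39 in Rb KO. In E2f8 KO they were 11.74, 11.68 and 11.72, and in DKO 12.23, 11.98 and 12.17. The arrays with the Rb label were thus all lower in the E2f8 WT background and all higher in the E2f8 KO background, with differences of -0.41 and 0.41, neither of them called. E2f8 was at 12.28, 11.70 and 11.88 in WT, 12.36, 12.52 and 11.68 in Rb KO, 12.89, 12.81 and 12.74 in E2f8 KO, and 13.13, 13.17 and 13.09 in DKO. With the E2f8 label, Rb1 differed by -0.70 and E2f8 by 0.90. Both were called in the additive fit (limma adjusted p = 0.000683 and 8.66e-05). Where their probe sets lie relative to the deleted parts is not stated, and a probe set outside that part checks nothing. Genotype names below are the labels of the arrays. Erythroid genes were high in all 12 arrays, with Tfrc, which encodes CD71, between 11.73 and 13.09 and Alas2, the first enzyme of heme synthesis, between 13.73 and 14.32. Leukocyte genes were also present: the mean of 16 B cell markers was 10.70, 11.79 and 10.19 in WT and 9.59, 11.77 and 11.76 in Rb KO, against 7.78, 8.01 and 8.18 in E2f8 KO and 6.29, 6.62 and 7.29 in DKO. Replicate 3 of E2f8 KO and replicate 3 of DKO had low Xist (5.22 and 3.99) and high Eif2s3y (8.17 and 7.82), unlike the other 10 arrays. Array medians lay between 6.22 and 6.35. The median standard error of a difference was 0.132, a precision set by the number of arrays and the spread among them.

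**Figure D1:**
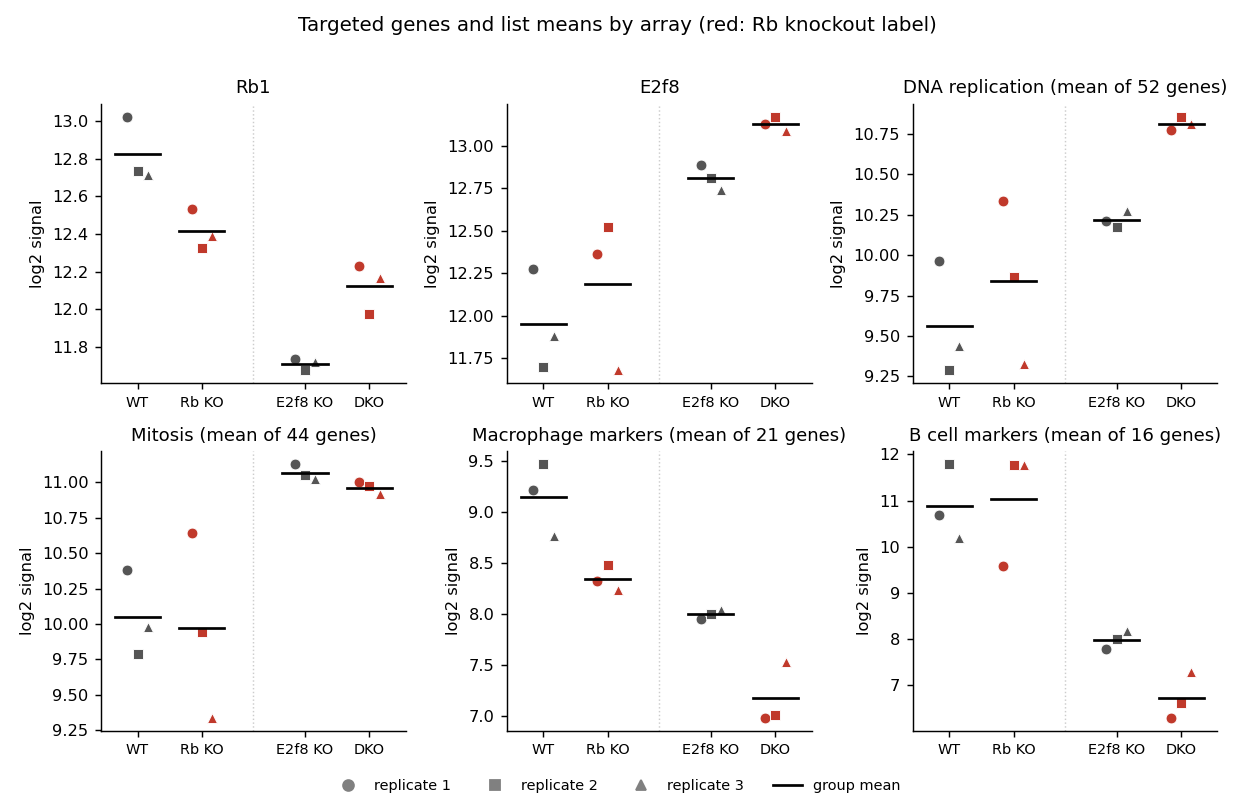
Log2 signal (y axis) by array in the 4 genotype labels (x axis) for Rb1, E2f8 and the means of 4 gene lists. Points are arrays, red with the Rb knockout label and grey without, shapes are replicate numbers and bars are group means. Macrophage markers are lower in red than in grey within each background, DNA replication is higher on average, and B cell markers differ mainly between the E2f8 backgrounds.

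Sequences upstream of genes that rose are shown first, because E2F factors bind the letters TTTCGCGC or TTTGGCGC and E2F targets are what Rb is known to hold down. Windows came from RefSeq (GRCm38.p6), 250 bases before to 50 after a gene's start, and both strands were searched. Of the 56 genes called higher, 51 had a window and 7 of these held either form (13.7%), against 179 of 10291 genes tested with a window (1.74%) and 2 of 98 called lower (2.04%). The 7 were Paqr4, Dtl, Ints7, Cdt1, Tap1, Dnajb9 and Uhrf1. Dtl and Ints7 lie head to head and share 1 match, and the match of Cdt1 lies downstream of its start. Stretches of the other windows follow 5′ to 3′ on the gene's strand, with the match in capitals and up to 40 bases on each side.
Dtl, chr1:191575545-191575592, minus strand: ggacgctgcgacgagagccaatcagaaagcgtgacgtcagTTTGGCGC
Uhrf1, chr17:56304088-56304175, plus strand: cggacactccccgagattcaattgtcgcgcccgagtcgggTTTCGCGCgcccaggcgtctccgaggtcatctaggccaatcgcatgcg
Paqr4, chr17:23740366-23740453, minus strand: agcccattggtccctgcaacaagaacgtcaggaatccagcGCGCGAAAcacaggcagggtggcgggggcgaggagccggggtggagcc
Tap1, chr17:34187381-34187468, plus strand: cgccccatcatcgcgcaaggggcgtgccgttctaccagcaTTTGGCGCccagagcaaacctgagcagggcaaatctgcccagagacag
Dnajb9, chr12:44210114-44210201, minus strand: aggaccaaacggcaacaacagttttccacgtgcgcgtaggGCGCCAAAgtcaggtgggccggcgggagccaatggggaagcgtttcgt
In Paqr4 and Dnajb9 the capitals are the reverse complement of the letters searched. On the DNA replication list, 10 of 42 windows held a match (23.8%), on the mitosis list 2 of 36 (5.56%) and on the macrophage list 0 of 14. The letters GAGGAAGT, a form bound by the myeloid factor PU.1, were in 4 of 98 windows of genes called lower (4.08%) and in 366 of the 10291 (3.56%). A match describes the letters only and is no evidence of binding.

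With the Rb label, 12 of 21 macrophage markers fell, and 3 of 52 DNA replication genes and 3 of 33 DNA damage response genes rose. Most called genes were on no list, 105 of the 124 falls and 45 of the 56 rises. Of 12980 genes, 180 were called (1.39%), 56 higher (0.431%) and 124 lower (0.955%), while 2048 had an unadjusted p under 0.05, of which 1189 were higher and 859 lower. Of the falls, 33 were at least 2-fold, and of the rises 10. Across all genes the differences in the 2 backgrounds, which share no array, had a Pearson's r of 0.399 and a Spearman's rho of 0.335. The rises were larger in the E2f8 KO background, with a median of 1.06 against 0.49 in the WT background and the larger value there for 54 of 56 genes. The falls were alike in both, with medians of -0.73 and -0.71 and the larger fall in the E2f8 KO background for 66 of 124. The additive fit favours genes with like differences in both backgrounds, because its residual holds the difference between them, so this likeness is partly due to the selection. In a fit with 1 coefficient per genotype, 97 of the 180 were also called in DKO against E2f8 KO, 1 in Rb KO against WT and 82 in neither background alone. The arrays with and without the label did not overlap in either background for 103 of the 124 lower genes (228 of all genes, 1.76%) and for 30 of the 56 higher genes (103 of all genes, 0.794%). Of the genes named below, 10 rises and 10 falls were picked by size among called genes so separated. For those named by this rule alone, such as Trf, the lack of overlap was fixed by the choice. The additive E2f8 term of the same fit called 5965 genes (46%).

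The number of calls and the balance of rises and falls depended on single arrays. Without WT replicate 1 there were 483 calls, with 285 higher and 198 lower, and without Rb KO replicate 3 there were 377, with 226 higher and 151 lower, so that rises outnumbered falls in both fits. Array weights also gave more rises (688) than falls (506). Without Rb KO replicate 1 there were 470 calls, 186 higher and 284 lower. Without WT replicate 2 the count was 108, without Rb KO replicate 2 it was 90, and without E2f8 KO replicates 1, 2 or 3 it was 58, 52 or 67. Without DKO replicates 1, 2 or 3 it was 78, 61 or 118. Of the 66 called genes named in the text, all kept their sign and 29 stayed called in each of the 12 fits that left out 1 array. Without both arrays of low Xist 49 genes were called, 6 higher and 43 lower, of which 40 were among the 180.

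**Figure D2:**
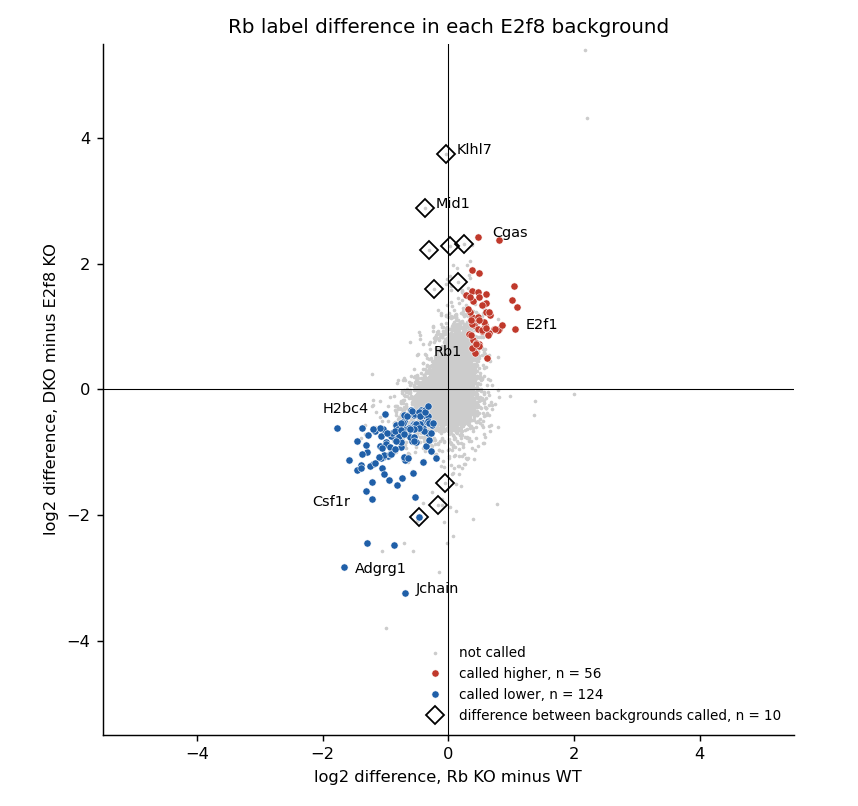
Each point is 1 of 12980 genes, with the log2 difference of Rb KO minus WT on the x axis and of DKO minus E2f8 KO on the y axis. Called genes (red 56 higher, blue 124 lower) were chosen by the mean of both differences and lie in the quadrants where these have the same sign, and the 10 diamonds, whose difference between backgrounds was called, lie farther from 0 on the y axis than on the x axis.

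Macrophage markers had the largest share of called genes among the 36 lists examined (57.1%, beside 0.955% of all genes called lower). Of the 24 genes on that list, 23 had a probe set with a symbol and 21 passed the filter. Of these 21, 12 fell and 0 rose, all 21 had a difference below 0, and the median was -0.85 against 0.00 over all genes tested. The list mean was 9.22, 9.47 and 8.77 in WT and 8.32, 8.48 and 8.24 in Rb KO, then 7.95, 8.0 and 8.04 in E2f8 KO and 6.98, 7.01 and 7.53 in DKO. The arrays with the Rb label lay below those without it in each background, and all E2f8 KO arrays lay below all WT arrays. A sort for Ter119 and high CD71 is meant to leave macrophages out, and how their RNA came to be measured was not tested. In bulk RNA, fewer cells of a type and less RNA per cell cannot be told apart. Other leukocyte lists were partly lower as well: of 16 B cell markers 15 had a difference below 0 and 0 were called, 4 had an unadjusted p under 0.05, and the median was -0.40, with 0.22 in the WT background and -1.11 in the E2f8 KO background. Granulocyte markers (17 genes, 0 called, median 0.26) stood at 6.18, 6.34 and 6.26 in WT, 6.75, 6.67 and 6.77 in Rb KO, 8.31, 8.41 and 7.95 in E2f8 KO, and 6.73, 7.84 and 10.10 in DKO. T and NK cell markers had 8 of 8 differences below 0, 0 called, 2 at an unadjusted p under 0.05 and a median of -0.35. The part of these cells in the results was not tested.

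Csf1r, the receptor for the growth factor that macrophages need to survive, stood at 10.92, 11.37 and 10.43 in WT against 9.67, 9.72 and 9.42 in Rb KO. In E2f8 KO it was at 8.82, 8.89 and 9.0, against 6.91, 7.20 and 7.73 in DKO. The groups did not overlap in either background, and Csf1r fell by 1.46 ± 0.17 on the log2 scale, 2.76-fold (SE, n = 6 against 6, limma adjusted p = 0.00212). Adgre1, which encodes the macrophage antigen F4/80, went from 9.87, 10.33 and 9.40 in WT to 8.68, 8.59 and 8.69 in Rb KO, and from 8.14, 8.32 and 8.39 in E2f8 KO to 6.26, 6.54 and 6.79 in DKO. It fell by 1.48 ± 0.17, 2.80-fold (adjusted p = 0.0019), again with no overlap. Its relative Adgre4 fell by 1.30 ± 0.15 (adjusted p = 0.0019).

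Genes through which island macrophages hold erythroblasts and engulf their expelled nuclei were among the falls. Vcam1, the adhesion molecule that binds an integrin on erythroblasts, was at 11.38, 11.96 and 11.11 in WT and 10.53, 10.49 and 10.36 in Rb KO, with 9.85, 9.65 and 9.98 in E2f8 KO and 8.32, 8.31 and 8.83 in DKO. It fell by 1.18 ± 0.16 (adjusted p = 0.00325), and no array with the label reached the lowest array without it in the same background. Axl, a receptor tyrosine kinase for dying cells, was at 11.18, 11.04 and 10.72 in WT, 9.88, 9.89 and 9.59 in Rb KO, 9.18, 9.28 and 9.54 in E2f8 KO, and 7.91, 8.07 and 8.43 in DKO. Its difference was nearly equal in both backgrounds, -1.19 and -1.20, and it had the smallest p of all genes (fall of 1.19 ± 0.13, adjusted p = 0.0019). Mertk, a kinase of the same family, was at 9.02, 9.27 and 8.14 in WT and 7.22, 7.44 and 7.39 in Rb KO, and at 6.78, 6.82 and 7.13 against 6.01, 6.06 and 6.21 in E2f8 KO and DKO. It fell by 1.14 ± 0.18 (adjusted p = 0.00935), by 1.46 in the WT background and by 0.82 in the other.

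**Figure D3:**
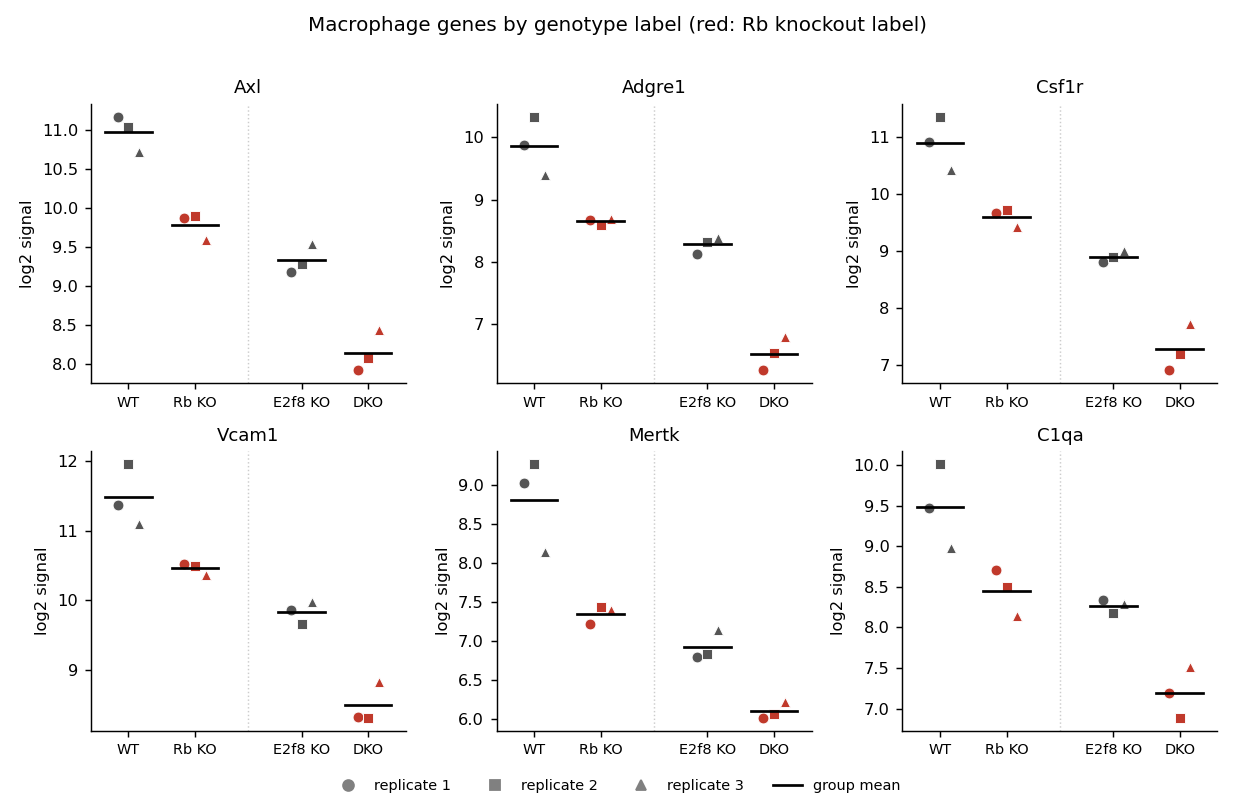
Log2 signal (y axis) of 6 macrophage genes by array in each genotype label (x axis), red with the Rb knockout label and grey without, with shapes for replicate numbers and bars for group means. In both backgrounds every red point lies below every grey point for Axl, Adgre1, Csf1r, Vcam1, Mertk and C1qa.

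The remaining called members of the list were Mrc1, the mannose receptor, which fell by 1.36 ± 0.21 (adjusted p = 0.00663), the 3 chains of complement C1q, the lectin Siglec1 and the transcription factors Maf and Spic, the last of which is needed for red pulp macrophages. C1qa was at 9.47, 10.01 and 8.97 in WT, 8.71, 8.50 and 8.14 in Rb KO, 8.34, 8.17 and 8.28 in E2f8 KO, and 7.19, 6.88 and 7.51 in DKO, with no overlap in either background and a fall of 1.05 ± 0.17 (adjusted p = 0.0111). C1qb and C1qc fell by 0.90 and 1.08 (adjusted p = 0.0443 and 0.0198), Spic by 0.90 (0.0448), Maf by 0.65 (0.0285) and Siglec1 by 0.53 (0.0371). Csf1r, Adgre1, Vcam1, Axl, Mertk, Mrc1 and C1qa stayed called in each of the 12 fits that left out 1 array. C1qb, C1qc, Spic, Maf and Siglec1 lost the call without any 1 of the E2f8 KO arrays and without DKO replicate 1 or 2, and some of them without WT replicate 1 or 2, Rb KO replicate 2 or DKO replicate 3. Their differences over the 12 fits ran from -1.05 to -0.77, -1.22 to -0.92, -1.05 to -0.79, -0.73 to -0.61 and -0.59 to -0.44. The members that were not called included Cd68 (-0.77, adjusted p = 0.0645) and Cd5l (-0.85, adjusted p = 0.0639), and both were called without Rb KO replicate 1, Cd5l also without WT replicate 3.

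Falls outside the macrophage list included several genes of iron, complement and receptors, most of them picked after their values were seen. Trf, the plasma iron carrier transferrin, was at 10.58, 11.09 and 9.89 in WT and 8.97, 9.39 and 9.03 in Rb KO, and at 8.82, 8.90 and 8.96 in E2f8 KO and 7.11, 7.69 and 8.15 in DKO. It fell by 1.32 ± 0.20 (adjusted p = 0.00776). It was named by a rule that required no overlap in either background. Hpgd, which inactivates prostaglandins, fell by 1.34, the lectin Fcna by 1.23, the export pump Abcc3 by 1.14 and the fungal receptor Clec4n (Dectin-2) by 1.20, and all 4 stayed called in each of the 12 fits that left out 1 array. Cfp, the complement factor properdin, fell by 0.94, the lysosomal protease Lgmn by 1.12, the receptor Treml4 by 1.17 and Gfra2, a receptor for neurturin, by 1.35. Lgmn lost its call without E2f8 KO replicate 2. Cfp lost it without E2f8 KO replicate 1 or 2 or DKO replicate 2. Treml4 and Gfra2 lost it without any 1 of the E2f8 KO arrays and without DKO replicate 1 or 2, at differences no smaller in size than -1.03 for Treml4, -1.15 for Gfra2, -0.81 for Cfp and -1.02 for Lgmn over all 12 fits. Hmox1, which breaks down heme, and Slc40a1, the iron exporter ferroportin, are both high in macrophages that recycle red cells, and their differences of -0.84 and -0.61 were not called (adjusted p = 0.0634 and 0.056), although both were without Rb KO replicate 1 or 3.

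The macrophage list was also lower with the E2f8 label (median -1.37), and other large falls differed in that respect. Adgrg1, the adhesion receptor GPR56, was at 9.30, 8.25 and 6.82 in WT and at 6.35, 6.46 and 6.59 in Rb KO, while E2f8 KO had 9.21, 9.39 and 9.88 and DKO 6.53, 6.95 and 6.49. All 6 arrays with the label were thus near one level in both backgrounds, and WT replicate 3 was close to them. Adgrg1 fell by 2.25 ± 0.34, 4.74-fold (adjusted p = 0.00663). Gdpd1, a phospholipid phosphodiesterase, had a like order, with 8.42, 9.68 and 7.51 in WT, 7.54, 7.16 and 7.0 in Rb KO, 9.62, 9.39 and 9.86 in E2f8 KO and 7.11, 7.51 and 6.90 in DKO. Its groups overlapped in the WT background, and it fell by 1.88 ± 0.32 (adjusted p = 0.0113). Cd36, a scavenger receptor of macrophages that erythroid precursors also carry, was at 12.36, 12.11 and 12.23 in WT, 11.73, 11.14 and 11.24 in Rb KO, 12.09, 11.45 and 11.46 in E2f8 KO, and 9.45, 9.36 and 8.74 in DKO. DKO stood far below the other 3 groups, with differences of -0.87 and -2.48 in the 2 backgrounds and a fall of 1.67 ± 0.27 over both (adjusted p = 0.00895). Cd36 was also lower with the E2f8 label, with a difference of -1.38, as the macrophage list was, whereas Adgrg1 and Gdpd1 had E2f8 differences of 0.78 and 0.51 that were not called. Jchain, the joining chain of secreted antibodies, was at 9.72, 9.39 and 9.98 in WT, 8.09, 9.42 and 9.51 in Rb KO, 9.62, 10.10 and 9.78 in E2f8 KO, and 5.58, 7.33 and 6.87 in DKO. It was the only one of 7 plasma cell markers called (14.3%, beside 1.39% of all genes, with a fall of 1.96 ± 0.45, adjusted p = 0.0472), its groups overlapped in the WT background, and it stayed called in 5 of the 12 fits that left out 1 array, with differences from -2.22 to -1.60. The arrays without which its call was lost were WT replicate 3 and each E2f8 KO and DKO array.

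A histone gene was the only gene called within the WT background. H2bc4, a core histone H2B gene, was at 12.43, 12.46 and 12.80 in WT and at 11.19, 10.67 and 10.55 in Rb KO. In E2f8 KO it was at 12.34, 11.79 and 12.03 and in DKO at 11.30, 11.45 and 11.59. No array with the label overlapped those without it, and the gene fell by 1.19 ± 0.20 over both backgrounds (adjusted p = 0.0113), by 1.77 in the WT background and by 0.61 in the other. That difference between backgrounds was itself not called (adjusted p = 0.252). Histone genes have near-identical copies, so that the signal of a single copy is uncertain. Of the 48 histone genes listed, 22 passed the filter, 1 fell (4.55%, beside 0.955% of all genes), 0 rose and the median was -0.07. For the linker histones, H1f2 differed by -1.20 and H1f3 by -0.74 in the WT background, against -0.16 and -0.02 in the E2f8 KO background, and neither was called over both (adjusted p = 0.121 and 0.297).

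E2f1, the activating E2F best known as a partner and target of Rb, was the only one of 13 Rb and E2F family genes that was called (7.69%, beside 1.39% of all genes). Its log2 signals were 10.79, 9.78 and 10.31 in WT and 11.78, 11.14 and 11.15 in Rb KO. In E2f8 KO they were 11.34, 11.32 and 11.19, and in DKO 12.13, 12.22 and 12.38. E2f1 was higher with the label in both backgrounds without overlap, by 1.06 and by 0.96, and rose by 1.01 ± 0.16, 2.01-fold (adjusted p = 0.00776). It stayed called in each of 23 alternatives of model, filter, scaling or arrays, with adjusted p-values up to 0.0499. E2f3, another activating E2F, was at 8.4, 7.58 and 7.74 in WT, 8.93, 8.26 and 7.70 in Rb KO, 7.57, 8.06 and 8.05 in E2f8 KO, and 9.05, 9.11 and 9.25 in DKO. Its difference was 0.81 ± 0.23 (adjusted p = 0.0944), and it was called without WT replicate 1 or Rb KO replicate 3. E2f7, the other atypical E2F, had a difference of 0.65 ± 0.20 (adjusted p = 0.13) and was called without Rb KO replicate 3. E2f2, the most erythroid of the activating E2Fs, differed by -0.22 (adjusted p = 0.296), Tfdp2, a dimer partner of E2Fs, by -0.25 (0.137) and the pocket protein gene Rbl1 by 0.20 (0.6).

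Most DNA replication genes had a difference above 0, and few of them were called. Of 52 genes tested, 3 rose (5.77%, beside 0.431% of all genes) and 0 fell, 49 had a difference above 0, and 32 of these had an unadjusted p under 0.05. The median was 0.46, with 0.32 in the WT background and 0.57 in the E2f8 KO background. The list mean was 9.96, 9.29 and 9.44 in WT, 10.34, 9.86 and 9.32 in Rb KO, 10.21, 10.17 and 10.27 in E2f8 KO, and 10.77, 10.86 and 10.81 in DKO. The DKO arrays lay above the E2f8 KO arrays, whereas WT and Rb KO overlapped, WT replicate 1 being high and Rb KO replicate 3 low within their groups. The count of 3 was 29 without Rb KO replicate 3 and 20 without WT replicate 1. It was 5 without Rb KO replicate 1, 1 without WT replicate 3 or Rb KO replicate 2, and 0 without WT replicate 2 or any 1 of the E2f8 KO or DKO arrays, while 47 to 51 of the 52 had a difference above 0 in these fits.

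The replication list genes called were Cdt1, Rfc4 and Dscc1, of licensing and clamp loading, while Dtl and Pole4 were called outside the list. Cdt1, which loads the helicase onto origins, was at 10.90, 10.26 and 10.29 in WT, 11.46, 11.02 and 10.68 in Rb KO, 11.34, 11.27 and 11.18 in E2f8 KO, and 12.15, 12.18 and 12.30 in DKO. Cdt1 rose by 0.76 ± 0.15 (adjusted p = 0.0249), with overlap in the WT background only. Dtl, which targets Cdt1 for destruction in S phase and whose upstream E2F match is printed above, was at 10.89, 10.22 and 10.43 in WT, 11.82, 11.43 and 10.86 in Rb KO, 11.57, 11.38 and 11.46 in E2f8 KO, and 12.69, 12.39 and 12.40 in DKO. Dtl rose by 0.94 ± 0.15 (adjusted p = 0.0109), and WT replicate 1 exceeded Rb KO replicate 3. The clamp loader subunits Rfc4 and Dscc1 rose by 0.82 ± 0.19 and 1.01 ± 0.23 (adjusted p = 0.0472 and 0.0441), while Mcm5, a subunit of the helicase, missed the threshold at 0.47 ± 0.11 (adjusted p = 0.055). Pole4, a small subunit of the leading strand polymerase that was not on the list, was at 10.51, 9.89 and 10.28 in WT, 11.15, 10.84 and 10.93 in Rb KO, 10.89, 10.85 and 10.64 in E2f8 KO, and 11.66, 11.79 and 11.82 in DKO. It did not overlap in either background, and it rose by 0.86 ± 0.12 (adjusted p = 0.00332). Dtl and Pole4 stayed called in each of the 12 fits that left out 1 array, Cdt1 in 5, and Rfc4 and Dscc1 in 3. All 3 of the latter lost the call without WT replicate 2 and without any 1 of the E2f8 KO or DKO arrays, and Rfc4 and Dscc1 also without WT replicate 3 or Rb KO replicate 2. Their differences over these fits were 0.69 to 0.87 for Cdt1, 0.74 to 0.98 for Rfc4 and 0.88 to 1.18 for Dscc1.

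**Figure D4:**
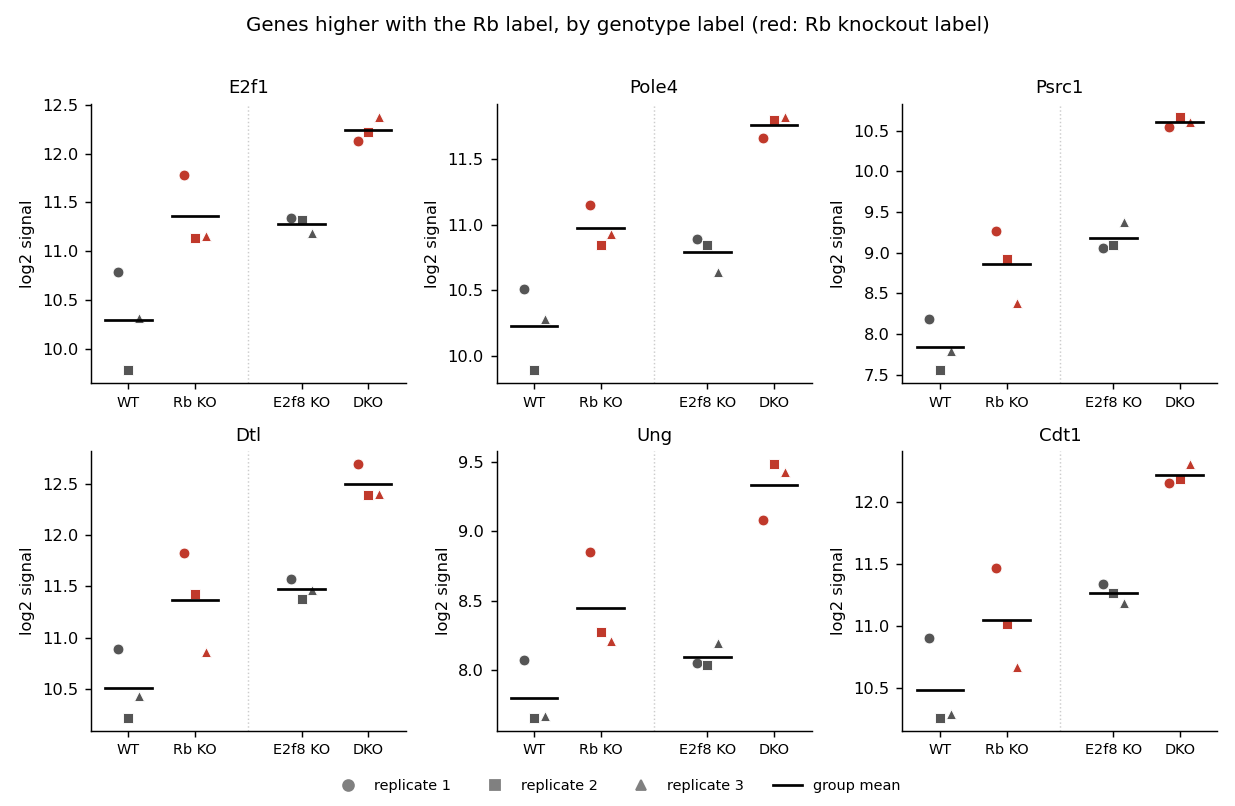
Log2 signal (y axis) of 6 genes called higher, by array in each genotype label (x axis), red with the Rb knockout label and grey without, with shapes for replicate numbers and bars for group means. E2f1, Pole4, Psrc1 and Ung separate in both backgrounds, while for Dtl and Cdt1 Rb KO replicate 3 lies below WT replicate 1.

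Genes of the DNA damage response gave a like count. On that list 3 of 33 rose (9.09%, beside 0.431% of all genes), 0 fell, 28 had a difference above 0 and the median was 0.37. Ung, which removes uracil from DNA, was at 8.07, 7.65 and 7.67 in WT, 8.85, 8.27 and 8.21 in Rb KO, 8.05, 8.04 and 8.19 in E2f8 KO, and 9.09, 9.49 and 9.43 in DKO. Ung rose by 0.94 ± 0.16 (adjusted p = 0.0123) without overlap in either background. Bard1, the partner of Brca1, rose by 0.80 ± 0.17 (adjusted p = 0.0368), and Uhrf1, which guides maintenance methylation at replication forks, by 0.58 ± 0.13 (adjusted p = 0.0427). Chek1, the checkpoint kinase, had a difference of 0.96 ± 0.25 (adjusted p = 0.0683) and was called without WT replicate 1 or Rb KO replicate 3. Called genes outside the list were picked after their values were seen, and genes of like function that were not called were not counted. The picked genes included Primpol, which reprimes stalled forks (0.92), Tonsl, which acts at stalled forks (0.79), and Fancg of the Fanconi anaemia core complex (0.71). Others were Rad51b of homologous recombination (0.73), the glycosylase Mbd4 (0.56) and Pkmyt1, which restrains Cdk1 (0.78). Ung stayed called in each of the 12 fits that left out 1 array. Primpol and Pkmyt1 stayed called in 8, Mbd4 in 5, Bard1 and Fancg in 4, and Uhrf1, Tonsl and Rad51b in 3. E2f8 KO replicate 2 and DKO replicate 2 were among the arrays without which each of these 8 lost the call, and the smallest difference in the 12 fits was 0.51, that of Mbd4.

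Genes on the mitosis list gave 0 calls. Of 44 tested, 3 had an unadjusted p under 0.05, all below 0, while 10 had a difference above 0 and 34 below, and the median was -0.08, which became 0.07 without Rb KO replicate 3. The list mean was 10.38, 9.79 and 9.98 in WT, 10.64, 9.94 and 9.34 in Rb KO, and 11.13, 11.05 and 11.02 in E2f8 KO. In DKO its lowest value was 10.91 and its median 10.97, and all 3 DKO arrays lay just below the E2f8 KO arrays. Of the G1/S control genes 0 of 21 were called (median 0.02). Nucleotide synthesis genes, which supply replication, had 0 of 26 called, although 23 had a difference above 0 (median 0.24). Cenpm and Psrc1, both outside the mitosis list, were called. Cenpm, a centromere protein gene, rose by 0.89 ± 0.15 (adjusted p = 0.0113). Psrc1, which binds spindle microtubules, was at 8.19, 7.55 and 7.80 in WT, 9.26, 8.93 and 8.39 in Rb KO, 9.06, 9.09 and 9.38 in E2f8 KO, and 10.55, 10.67 and 10.60 in DKO. It did not overlap in either background and rose by 1.22 ± 0.17 (adjusted p = 0.00332).

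The other large rises were spread over functions. Fbxl20, an F-box protein of ubiquitin ligases, had the smallest p among the rises, at 8.59, 8.47 and 7.93 in WT, 9.78, 9.32 and 9.01 in Rb KO, 8.21, 7.98 and 8.18 in E2f8 KO, and 9.72, 9.97 and 9.62 in DKO. The arrays with the label were near one level in both backgrounds, and so were those without it, with a rise of 1.35 ± 0.17, 2.54-fold (adjusted p = 0.00325). Paqr4, a membrane receptor family gene whose upstream E2F match is printed above, showed the same order at 8.70, 8.15 and 8.42 in WT, 10.21, 9.37 and 8.97 in Rb KO, 8.54, 8.33 and 8.62 in E2f8 KO, and 9.71, 10.10 and 9.62 in DKO. Paqr4 rose by 1.20 ± 0.19 (adjusted p = 0.00895). Fam221a, Zfp688, Ocel1 and Gm12522 rose by 1.59, 1.07, 0.99 and 0.73 (adjusted p = 0.0111, 0.00895, 0.0133 and 0.00487). All 6 genes stayed called in each of the 12 fits that left out 1 array.

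Cgas, the sensor of DNA in the cytosol, was at 5.40, 5.36 and 5.22 in WT, 6.42, 5.62 and 5.37 in Rb KO, 5.32, 6.03 and 5.80 in E2f8 KO, and 7.49, 8.51 and 8.46 in DKO. DKO stood above all other arrays, with a difference of 2.43 in the E2f8 KO background. In the WT background the difference was 0.48 and the groups overlapped. Over both backgrounds Cgas rose by 1.46 ± 0.33 (adjusted p = 0.0469). Cnnm4, a magnesium transporter, and Pqlc3 were likewise higher in DKO, with rises of 0.97 and 1.18 (both adjusted p = 0.0368). Cgas and Pqlc3 lost the call without WT replicate 3, each E2f8 KO or each DKO array, Cgas also without WT replicate 2 and Pqlc3 without Rb KO replicate 2. Cnnm4 lost it without WT replicate 2 or any 1 of the E2f8 KO or DKO arrays. The smallest differences in the 12 fits were 1.26, 1.02 and 0.84 for Cgas, Pqlc3 and Cnnm4.

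Targets of p53, the factor that answers DNA damage, had 2 of 26 called higher (7.69%, beside 0.431% of all genes), 0 lower and a median of 0.18. Pidd1, a death domain protein that activates caspase-2, was at 8.25, 7.62 and 8.09 in WT, 8.66, 8.56 and 8.21 in Rb KO, 8.52, 8.36 and 8.62 in E2f8 KO, and 9.88, 9.95 and 10.08 in DKO. Pidd1 rose by 0.98 ± 0.19 (adjusted p = 0.0208), mostly in the E2f8 KO background (1.47 against 0.49, a difference between backgrounds that was not called, adjusted p = 0.495). Phlda3, an inhibitor of Akt, was at 7.57, 7.64 and 7.67 in WT, 8.86, 8.46 and 7.72 in Rb KO, 10.16, 10.46 and 10.53 in E2f8 KO, and 11.22, 11.25 and 11.56 in DKO, and rose by 0.84 ± 0.17 (adjusted p = 0.0295). Its groups did not overlap within a background, with Rb KO replicate 3 close to WT. Pidd1 stayed called in 7 and Phlda3 in 4 of the 12 fits that left out 1 array, and both lost the call without any 1 of the E2f8 KO arrays and without DKO replicate 1 or 2. Phlda3 also lost it without WT replicate 2, Rb KO replicate 2 or DKO replicate 3. Their differences were at least 0.89 and 0.74 in these fits.

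Antigen presentation and stress genes gave single calls. Tap1, the peptide transporter of MHC class I, was at 8.87, 9.35 and 8.73 in WT, 9.76, 9.56 and 9.52 in Rb KO, 7.48, 8.18 and 7.94 in E2f8 KO, and 8.71, 9.01 and 8.46 in DKO. Tap1 rose by 0.75 ± 0.16 (adjusted p = 0.0368) with no overlap in either background. H2-Q4, an MHC class I gene with near-identical neighbours, so that its own share of the signal is uncertain, rose by 0.92 ± 0.18 (adjusted p = 0.0239). Of 26 interferon response genes 2 were called (7.69%, beside 1.39% of all genes), Tap1 higher and Rsad2, an antiviral enzyme, lower (fall of 0.41 ± 0.08, adjusted p = 0.026). Dnajb9, an endoplasmic reticulum co-chaperone, was the only one called of 34 heat shock and unfolded protein response genes, a share of 2.94% near the 1.39% of all genes (rise of 0.71 ± 0.15, adjusted p = 0.0334). Tap1, H2-Q4, Rsad2 and Dnajb9 lost the call without any 1 of the E2f8 KO arrays, Rb KO replicate 2 or DKO replicate 2, and some of them without WT replicate 3 or DKO replicates 1 or 3. The differences in these fits stayed within 0.65 to 0.84 for Tap1, 0.81 to 1.04 for H2-Q4, -0.45 to -0.36 for Rsad2 and 0.62 to 0.79 for Dnajb9.

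Genes of late red cell maturation gave 2 calls. Of 25 such genes these 2 fell (8%, beside 0.955% of all genes), 0 rose, 19 had a difference below 0 and the median was -0.22, between -0.27 and -0.16 over the alternatives. Ube2o, which clears ribosomal proteins from reticulocytes, was at 13.52, 13.67 and 13.72 in WT, 13.49, 13.23 and 13.47 in Rb KO, 12.69, 12.74 and 12.64 in E2f8 KO, and 12.22, 12.30 and 11.94 in DKO. It fell by 0.39 ± 0.08 (adjusted p = 0.0383). The autophagy receptor Sqstm1 fell by 0.35 ± 0.07 (adjusted p = 0.0363). Bcl2l1 encodes Bcl-xL, which keeps late erythroblasts alive, and was at 12.61, 12.78 and 12.93 in WT, 12.38, 12.16 and 12.57 in Rb KO, 11.66, 11.64 and 11.50 in E2f8 KO, and 11.13, 11.13 and 10.92 in DKO. It fell by 0.47 ± 0.09 (adjusted p = 0.0237), without overlap in either background. Cat, the catalase of red cells, fell by 0.64 ± 0.14 (adjusted p = 0.0409), and Tspo2, a translocator protein of erythroblasts, by 1.19 ± 0.26 (adjusted p = 0.0383). The difference of Cat was -0.20 in the WT background and -1.09 in the E2f8 KO background. That difference between backgrounds was not called (limma adjusted p = 0.1005).

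These erythroid calls depended on single arrays. Ube2o and Cat stayed called in 3, Sqstm1 and Tspo2 in 4 and Bcl2l1 in 5 of the 12 fits that left out 1 array. All 5 lost the call without any 1 of the E2f8 KO arrays, Rb KO replicate 2 or DKO replicates 1 or 2, and their differences were at most -0.32, -0.53, -0.31, -1.04 and -0.43 in these fits. WT replicates 2 and 3 and DKO replicate 3 were the other arrays whose loss ended some of these calls. Heme synthesis (0 of 16, median -0.12), iron handling (0 of 20, median -0.07) and red cell membrane genes (0 of 28, median -0.09) had 0 calls. Tfrc had a difference of -0.18 ± 0.14 (adjusted p = 0.576), Alas2 of -0.12 ± 0.05 (0.261), the erythropoietin receptor gene Epor of -0.27 ± 0.15 (0.405) and Kit, a receptor of early progenitors, of -0.35 ± 0.14 (0.258). Of the 36 lists, 14 of 25 pathway lists and 9 of 11 cell type lists had 0 called members, with list medians from -0.16 to 0.24 and from -0.40 to 0.26.

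**Figure D5:**
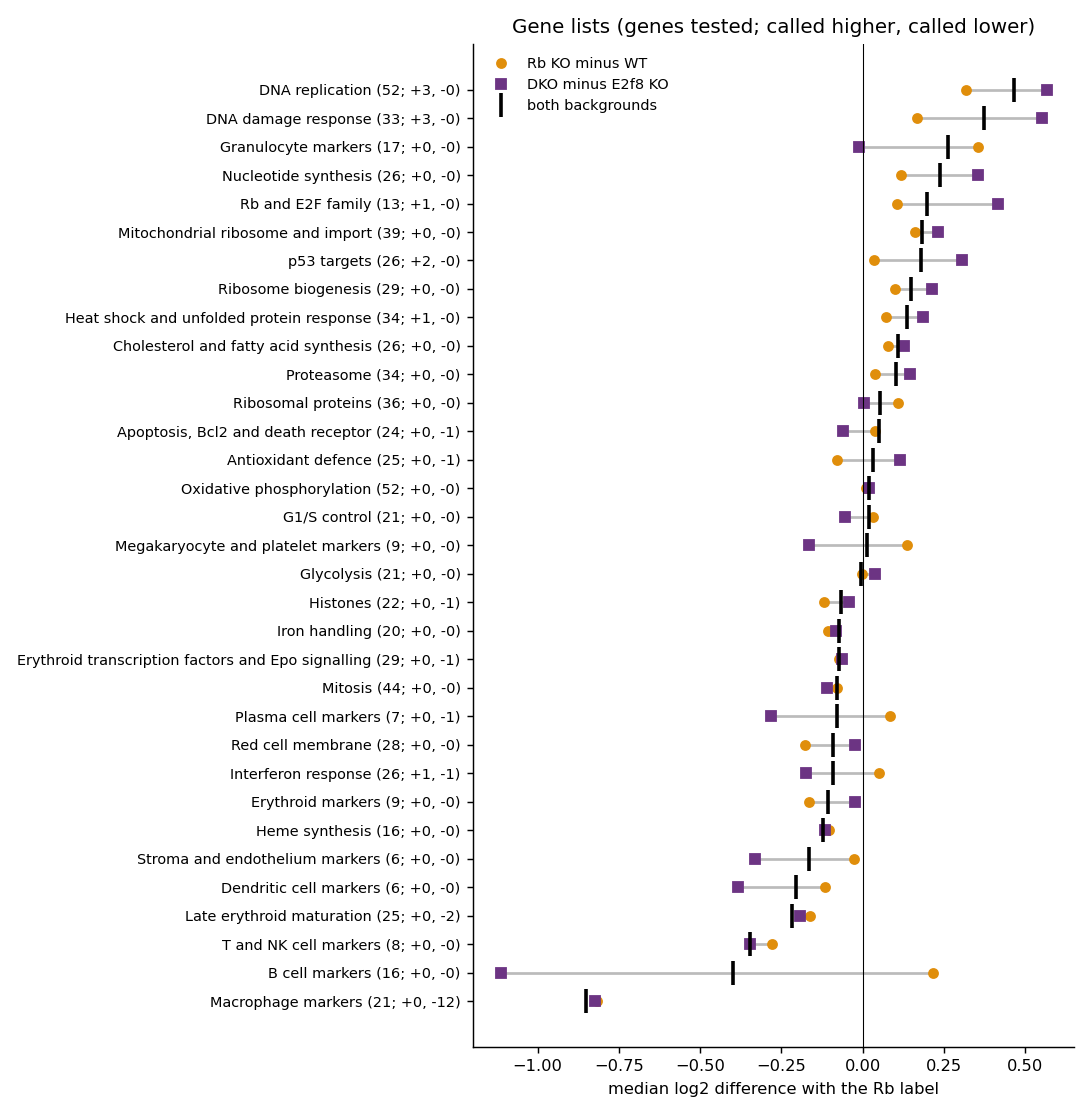
Median log2 difference with the Rb label (x axis) for each gene list with at least 6 genes tested (y axis, with the number tested and the numbers called higher and lower). Orange circles are Rb KO minus WT, purple squares DKO minus E2f8 KO, and black ticks both backgrounds. Macrophage markers lie at -0.82 in each background, DNA replication at 0.32 and 0.57, and B cell markers at 0.22 and -1.11.

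An average over both backgrounds hides genes that moved in 1 of them only, so the difference between backgrounds was tested itself. It was called for 10 of 12980 genes (0.077%), 7 above and 3 below 0, with 740 at an unadjusted p under 0.05. The count was 49 without Rb KO replicate 1, 20 without DKO replicate 1, 15 without WT replicate 2 and 2, 5, 4, 6, 4 and 6 without WT replicate 1, WT replicate 3, E2f8 KO replicate 1, E2f8 KO replicate 2, Rb KO replicate 2 and DKO replicate 2. Tnfrsf10b, a death receptor for TRAIL, was at 6.02, 6.51 and 6.22 in WT, 5.95, 5.93 and 5.96 in Rb KO, 6.07, 6.34 and 6.51 in E2f8 KO, and 8.36, 8.48 and 8.75 in DKO. Only the DKO arrays stood apart, and the difference between backgrounds was 2.53 (adjusted p = 0.000465). Klhl7, an adaptor of a ubiquitin ligase, was at 6.25, 6.50 and 5.88 in WT, 5.98, 6.29 and 6.24 in Rb KO, 5.73, 5.48 and 5.52 in E2f8 KO, and 9.93, 9.04 and 8.99 in DKO, a difference between backgrounds of 3.78 (adjusted p = 0.000465). Its averaged difference of 1.85 ± 0.53 was not called in the additive fit (adjusted p = 0.1), whose residual holds the difference between backgrounds. It was called with 1 coefficient per genotype (adjusted p = 0.000484), with array weights (0.0199) and without Rb KO replicate 1 (0.0416), and its adjusted p over the alternatives ran up to 0.362.

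The other genes of this kind higher in DKO were Mid1, a ubiquitin ligase of microtubules (difference between backgrounds 3.26), Eda2r, a receptor for ectodysplasin and a p53 target (2.25), the LIM protein gene Fhl1 (2.06), the sialomucin gene Podxl (1.82) and the sorting nexin gene Snx16 (1.55). Those lowest in DKO were the cyclin gene Ccng2 (-1.67) and Syt14 (-1.56). The epoxide hydrolase gene Ephx3 (-1.44) was instead highest in E2f8 KO. Its means were 5.27 in WT, 5.22 in Rb KO, 7.53 in E2f8 KO and 6.03 in DKO. Syt14 was the only one of the 10 that was also among the 180, although with 1 coefficient per genotype the averaged difference of the other 9 was called too. It was at 8.06, 8.03 and 8.02 in WT, 7.82, 7.46 and 7.44 in Rb KO, 8.86, 8.46 and 8.74 in E2f8 KO, and 6.72, 6.54 and 6.74 in DKO, so that both backgrounds had the same direction and DKO the lowest values. It fell by 1.25 ± 0.24 over both (adjusted p = 0.0205), a call lost without any 1 of the E2f8 KO arrays or DKO replicate 1 or 2, at differences of -1.39 to -1.12 over the 12 fits.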

How the data were processed

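RNA of sorted mouse spleen cells was hybridised to 12 Affymetrix arrays, 1 sample each. The deposited values, 1 per probe set and array, are on a log2 scale inferred from their range (1.07 to 14.84), and the authors used MAS5 per the submitters' processing notes, which give no version. Further background correction, normalization and the build are not stated in those notes. Depth is set by the number of arrays. Replicates correlated with r from 0.92 to 0.992. The p-values measure only the spread among these arrays, which are labelled biological replicates, and part of that spread may be technical.

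Of 35557 probe sets, 21789 had 1 gene symbol and 1621 several. Symbols were updated by gene number to RefSeq. Probe sets in the lowest 40% by mean (below 5.84) and those without a single symbol were left out, and the highest probe set per gene was kept (12980 genes), with no pseudocount. limma 3.58.1 in R 4.3.3 fitted Rb and E2f8 labels as additive terms (9 residual degrees of freedom, mean trend), and 1 coefficient per genotype (8) for values within and differences between backgrounds. Tests were two-sided, Benjamini-Hochberg adjusted over all genes, and tested on simulated data.

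The comparison, the 36 gene lists and the genes named were chosen with earlier results of these data known. The naming rule takes the Rb and E2F family, the 10 largest rises and falls among called genes separated in both backgrounds, the 5 smallest p each way, the 5 largest differences between backgrounds each way, the 4 smallest p of each list and erythroid landmarks. Named after their values were seen were the other called macrophage list members, Fcna, Abcc3, Lgmn, Treml4, Clec4n, Cfp, Cd68, Cd5l, Gdpd1, Tspo2, Dtl, Ints7, Cenpm, Cgas, H2-Q4, Pkmyt1, Primpol, Fancg, Tonsl, Mbd4, Rad51b, Podxl and Snx16, and Xist and Eif2s3y. Alternatives were other filters, normalizations, probe set rules, thresholds and models, the replicate number as a block, and leaving out arrays.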

Additional observations from a re-analysis of the deposited data

Results flagged for a closer look

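The difference of the Rb label between the 2 E2f8 backgrounds, (DKO minus E2f8 KO) minus (Rb KO minus WT), was past the threshold for 10 genes by its own test in limma. On the log2 scale it was 3.78 for Klhl7, 3.26 for Mid1, 2.53 for Tnfrsf10b, 2.25 for Eda2r, 2.06 for Fhl1, 1.82 for Podxl and 1.55 for Snx16. It was -1.44 for Ephx3, -1.56 for Syt14 and -1.67 for Ccng2. The averaged difference was called in the additive fit for Syt14 and not for the other 9. In the fit with 1 coefficient per genotype it was called for these 9 as well, with adjusted p from 0.000484 (Klhl7) to 0.0156 (Podxl). Rb1 moved in opposite directions without overlap in the 2 backgrounds, a difference of 0.82 whose test was not past the threshold (adjusted p = 0.158). Among probe sets outside the gene-level fit, those with no symbol or several, 104 were called for the Rb label when all 21335 probe sets that passed the filter were fitted.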

How the results depend on the processing

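With 180 genes called for the Rb label and 10 for the difference between backgrounds, both counts stayed within 1.5 times under the replicate block (148 and 13), no filter (148 and 10), quantile normalization (266 and 12), means of probe sets (183 and 10), all probe sets (270 and 9) and no variance trend (163 and 10). The model with 1 coefficient per genotype called 326, centred arrays 87, and removal of the lowest 60% 170 and 6. Array weights, whose estimation stopped before its tolerance was reached, called 1194 (688 higher, 506 lower) and 59. An adjusted p under 0.01 left 31 and 4, and a 2-fold minimum 43 and 10. Without the 2 arrays of low Xist the counts were 49 and 9. Without Rb KO replicate 1 and DKO replicate 3 together, an alternative chosen after the data were seen, they were 245 and 279. Leaving out 1 array gave 52 to 483 and 2 to 49. The cause of these moves was not tested, except that the threshold alternatives are stricter by construction. Same-numbered arrays of different groups deviated together in 7 of 18 pairs (r from -0.379 to 0.57, with 0.1 as the limit). Differently numbered pairs had r from -0.696 to 0.606. Deviations from a group mean are tied to each other, so these values cannot decide whether the numbers pair the arrays. Of the 148 genes called under the replicate block 134 were among the 180. Under these alternatives the macrophage list had 6 to 18 members called lower and a median from -0.97 to -0.77. Of the 66 named genes that were called, 22 stayed so and 66 kept their sign in every alternative of model, filter, scaling or arrays. The stricter thresholds are not among these, and C1qa and H2bc4, for example, were not called at an adjusted p under 0.01. The averaged difference of Rb1, 0.00, turned to -0.0856 without the arrays of low Xist and to -0.0364 without Rb KO replicate 1 and DKO replicate 3. Leaving out 1 array it ran from -0.0664 (without DKO replicate 1) to 0.0933 (without WT replicate 1), below 0 without any 1 of the E2f8 KO or DKO arrays.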
